A study of Danio rerio with 24 samples.

Results

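The genes sought here were those whose transcripts stood higher in the livers of 1-year zebrafish labelled rotenone 37.5 nM than in those labelled 3.75 nM, without overlap, in each of 2 series of fish numbers taken apart. For every gene, the gap in a series was the lowest 37.5 nM fish minus the highest 3.75 nM fish on the log2(CPM + 1) scale, where CPM is the count per 1000000 counts of the column total. The genes were chosen by these dose values of the 18 fish of 1 year, ordered by the smaller of their 2 gaps, and the first 80 were to be taken. Only 13 of 32105 gene rows (0.0405%) had both gaps above 0. The remaining 67 of the 80 places fell on genes tied at a gap of exactly 0. There were 6667 such genes, 5877 of them without a read in any 1-year fish, and no tied gene passed the filter on low counts. The 67 ties that filled the list by identifier order had at most 0.53 CPM in any 1-year fish, so they are counted but not described. The account below rests on the 13 genes and, for the wider pattern, on the 80 highest-ranked genes among the 15465 with enough counts to test. Of the 13, 12 are among these 80, and cdc14aa, with 0 to 5 reads a fish, is not. The other 68 of the 80 overlapped between doses in at least 1 series.

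Rotenone blocks complex I of the mitochondrial respiratory chain, and the liver is the main organ of its oxidation and clearance. The 13 genes do not form a named pathway. They include regulators known from the circadian clock, which makes transcript levels rise and fall through the day, from splicing and RNA surveillance, and from phosphoinositide turnover and vesicle traffic. The 80 also hold ULK1, the kinase that starts autophagy, BNIP3L, a receptor that marks mitochondria for autophagy, and KEAP1, the ubiquitin ligase adaptor that keeps the antioxidant factor NRF2 low. None of these is among the 13, so for each the doses overlapped in at least 1 series.

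The fish were males of the AB JxTu strain, with 1 liver library per fish, so p-values set a difference against the spread between fish. There were 6 fish of 3 years at 37.5 nM, which also carried Tg(flk:mCherry), 9 fish of 1 year at 37.5 nM and 9 fish of 1 year at 3.75 nM. Every fish has a rotenone label, none is given as untreated, and neither the length of exposure nor the meaning of the fish numbers is stated. The upper series of numbers (189 to 202) held 4 fish of 3 years, 5 of 1 year at 37.5 nM and 5 at 3.75 nM. The lower series (163 to 181) held 2 fish of 3 years, 4 of 1 year at 37.5 nM and 4 at 3.75 nM. The 3.75 nM fish came in a count table of their own, so dose and set cannot be told apart, nor can age and transgene.

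Column totals were 30098919 to 43833220 in 3-year fish, 29034300 to 45297644 in 1-year fish at 37.5 nM and 24644663 to 40706711 at 3.75 nM. The libraries carried liver markers throughout: the mean log2(CPM + 1) of 27 hepatocyte genes was 10.1 to 10.3 in 3-year fish, 9.55 to 10.2 in 1-year fish at 37.5 nM and 9.55 to 10.2 at 3.75 nM. Intestine markers, 26 genes, scored above 2 in 5 libraries, with values of 3.90 in fish 198 and 5.49 in fish 200 at 37.5 nM, and of 4.18, 5.62 and 2.75 in fish 166, 190 and 192 at 3.75 nM. The other libraries had scores of 1.27 to 1.98. Skeletal muscle markers, 26 genes, scored 3.82 in fish 198 of 1 year at 37.5 nM, 2.29 in the 3-year fish 178 and 1.61 in fish 166 at 3.75 nM. In the remaining libraries the muscle score was 0.204 to 0.698. The median score of 27 erythrocyte markers was 3.197 (range 2.71 to 3.59) in 3-year fish, 2.68 (2.27 to 3.75) in 1-year fish at 37.5 nM and 2.43 (1.99 to 2.61) at 3.75 nM, with 3 to 6 of the 27 at 0 reads. In bulk liver, fewer cells of a type and less RNA per cell cannot be told apart. None of the 80 genes is on any of the 11 marker lists, and the part of these markers in the results was not tested.

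Markers of the endocrine pancreas (14 genes) were high in the 4 lower-series fish at 3.75 nM. Their score was 0.147 to 1.32 in 3-year fish of the upper series and 0.191 to 0.591 in those of the lower. In 1-year fish at 37.5 nM it was 0.0861 to 2.69 in the upper series, with the highest value in fish 198, and 0.127 to 0.853 in the lower. At 3.75 nM it was 0.179 to 1.32 in the upper series and 1.42 to 3.28 in the lower. In the lower series the doses did not overlap in this score, and at 3.75 nM neither did the series. The summed level of the 14 genes in the lower series was 1.71 to 17.3 CPM at 37.5 nM, with 3 to 9 genes at 0 reads, and 89.0 to 771 CPM at 3.75 nM, with 1 to 3 at 0. The insulin gene ins had 0 to 4.53 CPM in the lower-series fish at 37.5 nM and 61.3 to 497 CPM in those at 3.75 nM. The exocrine pancreas score (19 genes) overlapped between the doses in the lower series, with 3.79 to 8.22 at 37.5 nM and 6.44 to 8.74 at 3.75 nM. All 4 lower-series fish at 3.75 nM carried the endocrine markers, so in that series dose and these markers cannot be told apart.

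The PAR bZip factor hlfa (ENSDARG00000074752) is a clock-output transcription factor. It had a lowest, median and highest value of 74.7, 80.4 and 96.9 CPM in 3-year fish, of 48.5, 72.1 and 94.2 CPM in 1-year fish at 37.5 nM, and of 22.6, 47.1 and 68.5 CPM at 3.75 nM. All 6 older fish lay above all 9 fish at 3.75 nM. At 1 year the 2 doses overlapped across the series, where fish 192 at 3.75 nM, with 68.5 CPM, lay at or above 3 of the 4 lower-series fish at 37.5 nM. Within the series the gaps were 0.061 (upper) and 0.042 (lower) on the log2(CPM + 1) scale.

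For 3 genes the known role lies in RNA processing. UHMK1 (ENSDARG00000059575), a kinase that acts on splicing factors, had 5.45, 5.57, 7.04, 7.30 and 8.05 CPM in upper-series fish at 37.5 nM, against 3.96, 4.33, 4.89, 4.97 and 5.25 CPM at 3.75 nM. In the lower series it had 6.34, 6.41, 6.99 and 7.005 CPM at 37.5 nM, against 3.23, 3.30, 3.77 and 4.14 CPM at 3.75 nM. All 9 fish at 37.5 nM lay above all 9 at 3.75 nM, and so did all 6 older fish, at 5.86 to 8.20 CPM.

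The minor-spliceosome protein rbm48 (ENSDARG00000033754), whose role is known from human and maize, had 7.44 to 11.96 CPM in upper-series fish at 37.5 nM, against 4.92 to 7.18 CPM at 3.75 nM. In the lower series it had 6.72 to 8.51 CPM at 37.5 nM, against 3.01 to 4.11 CPM at 3.75 nM. Its 3-year fish spread widely, with 14.1 CPM in fish 194 and 4.72 CPM in fish 195, below all 5 upper-series fish at 3.75 nM. SMG8 (ENSDARG00000061378), a partner of the SMG1 kinase in nonsense-mediated decay, differed least of the 12 tested genes: 8.76 to 11.7 CPM in 1-year fish at 37.5 nM and 6.22 to 9.52 CPM at 3.75 nM. Its 3-year values of 7.97 to 11.7 CPM overlapped both groups.

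ANKRD12 (ENSDARG00000052419), an ankyrin-repeat nuclear coregulator, and PLAG1 (ENSDARG00000051926), a zinc-finger transcription factor, are the other nuclear proteins among the 13. ANKRD12 had a lowest, median and highest value of 35.5, 42.8 and 46.2 CPM in 3-year fish, of 31.1, 39.0 and 43.8 CPM in 1-year fish at 37.5 nM, and of 12.5, 24.5 and 30.5 CPM at 3.75 nM. PLAG1 had 6.39, 7.12 and 7.77 CPM in 3-year fish, 5.497, 7.30 and 8.09 CPM in 1-year fish at 37.5 nM, and 3.23, 4.79 and 5.46 CPM at 3.75 nM. For both genes all 9 fish of 1 year and all 6 of 3 years at 37.5 nM lay above all 9 at 3.75 nM. For PLAG1 the margin between the 1-year groups was 0.0080 on the log2(CPM + 1) scale, set by fish 199 and fish 191.

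Of the genes of membranes and transport, mtmr3 (ENSDARG00000098201, a symbol that 2 gene rows carry) encodes a myotubularin phosphatase of phosphoinositides that has been linked to autophagy. It had 6.42, 6.71, 7.54, 7.74, 7.89 and 9.13 CPM in the 3-year fish, above every other fish. The 1-year fish at 37.5 nM had 3.73 to 6.21 CPM. At 3.75 nM the upper-series fish had 1.43, 3.98, 4.28, 4.40 and 4.42 CPM and the lower-series fish 1.08, 1.20, 1.44 and 1.83 CPM. Fish 189 stood with the lower series, and the other 4 upper-series fish at 3.75 nM stood above fish 175 at 37.5 nM, the lowest of its dose.

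The gene fhip2b (ENSDARG00000060029) belongs to the family of FHIP proteins, which link cargo to dynein through FTS and Hook. It had 15.5 to 20.3 CPM in 3-year fish, 13.9 to 18.6 CPM in 1-year fish at 37.5 nM and 7.14 to 13.8 CPM at 3.75 nM. No fish at 37.5 nM of either age fell among the fish at 3.75 nM, but fish 198 at 37.5 nM, with 13.9 CPM, stood next to fish 192 at 3.75 nM, with 13.8 CPM.

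The gene ftr67 (ENSDARG00000098820) is one of the finTRIM genes, a large fish family of TRIM ubiquitin ligases with near-identical copies, so how its reads were shared between copies is uncertain. It had 10.8, 11.1, 12.4, 13.7 and 15.8 CPM in upper-series fish at 37.5 nM, against 5.43, 9.49, 9.67, 9.83 and 10.7 CPM at 3.75 nM. In the lower series it had 13.9, 14.9, 14.99 and 16.2 CPM at 37.5 nM, against 3.49, 4.24, 4.37 and 4.83 CPM at 3.75 nM. The lower-series gap of 1.35 was the widest among the 13, while the upper-series gap was 0.016.

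No role is given here for si:ch211-236p5.2 (ENSDARG00000086256) or si:ch211-178h7.4 (ENSDARG00000094249). The first had 4.22 to 6.97 CPM in 3-year fish, 2.59 to 4.03 CPM in 1-year fish at 37.5 nM and 1.81 to 2.70 CPM at 3.75 nM, so the older fish stood apart above both younger groups. The second had 2.37 to 4.56 CPM in 3-year fish, 2.84 to 3.55 CPM in 1-year fish at 37.5 nM and 1.64 to 2.84 CPM at 3.75 nM, and its upper-series gap of 0.0017 was the smallest of the 13. The phosphatase gene cdc14aa (ENSDARG00000013858) had 2 to 5 reads per 1-year fish at 37.5 nM and 0 to 2 at 3.75 nM. Summed over the fish, it had 31 reads in the 9 at 37.5 nM and 10 in the 9 at 3.75 nM. It was chosen for this difference and did not pass the filter on low counts, so no fold or test is given.

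**Figure D1:**
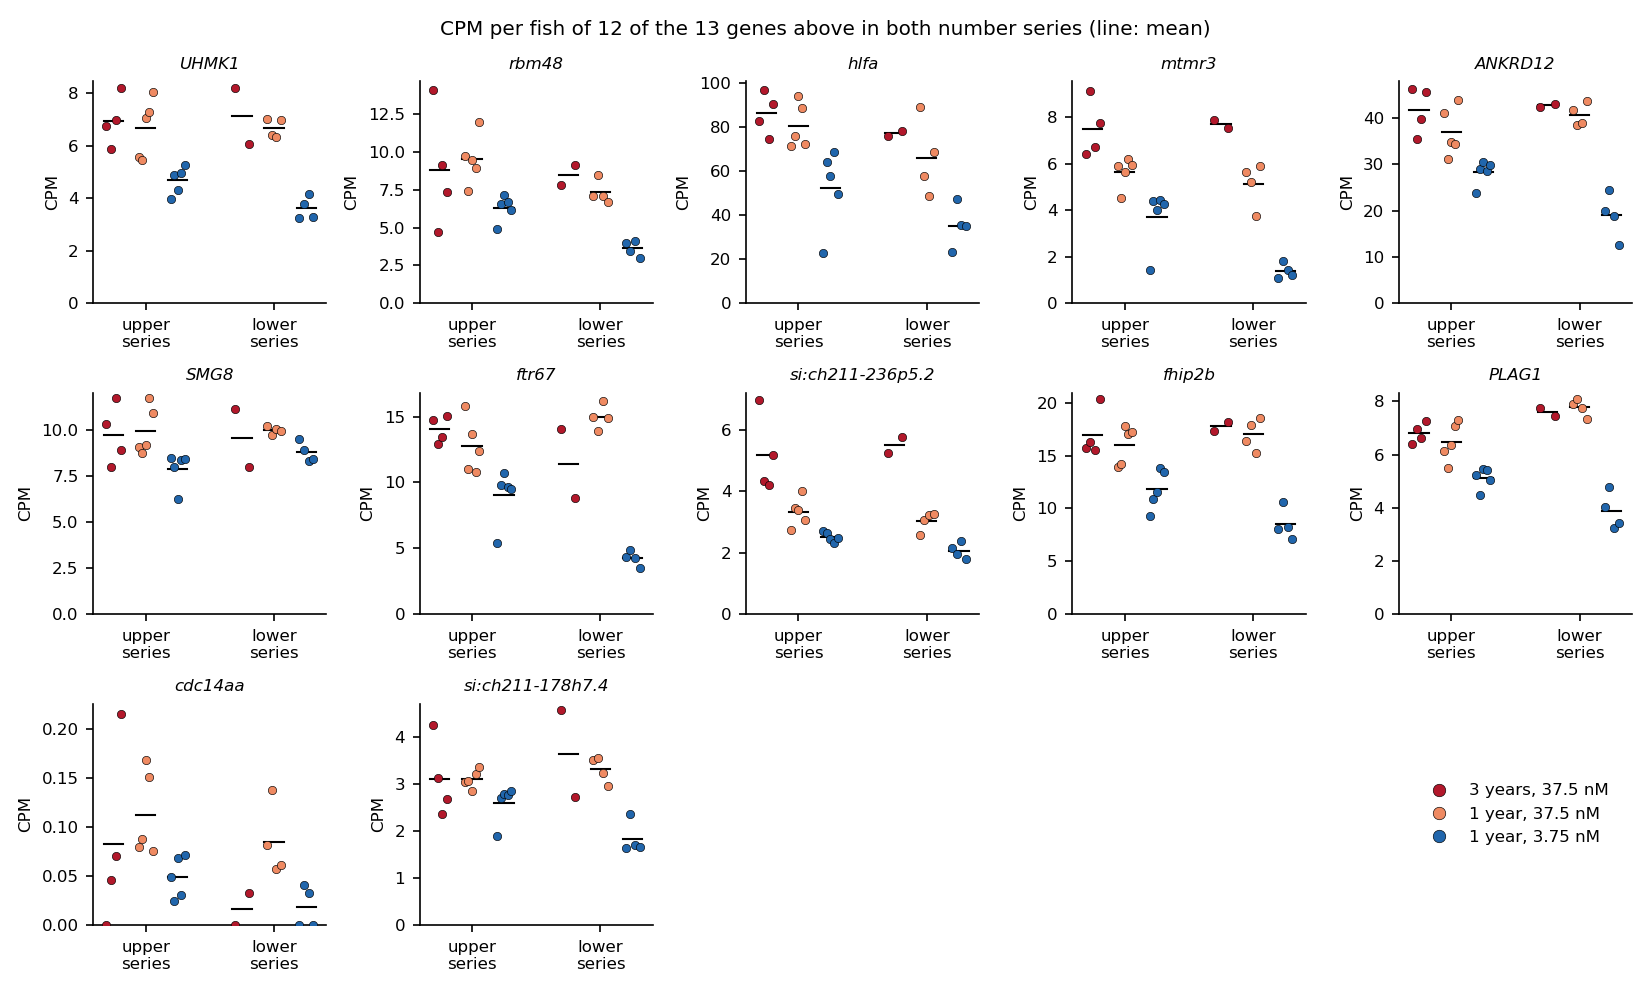
CPM (vertical axes, from 0) of each fish for 12 of the 13 genes, by series of fish numbers (upper left, lower right), with 3-year fish at 37.5 nM left, 1-year fish at 37.5 nM in the middle and 1-year fish at 3.75 nM right. Lines are means, and for ftr67 and mtmr3 the 3.75 nM fish of the upper series, except fish 189, lie closer to the 37.5 nM fish than those of the lower series do.

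Averaged over the 13 genes, log2(CPM + 1) was 3.09 to 3.30 in 3-year fish and 2.97 to 3.28 in 1-year fish at 37.5 nM. At 3.75 nM it was 2.76 to 2.81 in fish 190 to 193, 2.39 in fish 189 and 2.15 to 2.44 in the lower series. Fish 189 had the lowest value of the 5 upper-series fish at 3.75 nM in 9 of the 13 genes, in 46 of the 80 (57.5%) and in 19.1% of all measured genes.

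For 6 of the 13 genes, UHMK1, ANKRD12, ftr67, fhip2b, PLAG1 and si:ch211-178h7.4, all 9 fish at 37.5 nM lay above all 9 at 3.75 nM. These 6 were all such genes among those measured (0.0388%). The mirrored order, lower at 37.5 nM in both series, held for 70 measured genes (0.453%), against 12 (0.0776%) for the order described here. The gap above 0 was common in the lower series, in 2500 measured genes (16.2%), and rare in the upper series, in 36 (0.233%). For 11 of the 13 genes, and for 71 of the 80, the upper series gave the smaller gap. Within it, fish 199 was the lowest fish at 37.5 nM for 7 of the 13 genes and 38 of the 80. Neither the counts for fish 199 nor those for the smaller gap were taken over all measured genes. Whether either is a trait of the 13 or the 80 was therefore not tested.

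Which genes count as apart depended on how the columns were scaled. With TMM factors, which correct column totals for composition and ran from 0.729 in fish 199 to 1.25 in fish 190, 29 genes had both gaps above 0, but only 5 of the 13 were among them. Among these 5 were UHMK1, rbm48, mtmr3 and si:ch211-236p5.2. Of the other 8, SMG8 had both gaps below 0 (−0.09 in the upper series and −0.12 in the lower), and the rest had upper-series gaps of −0.20 to −0.01. The 29 were led by mbd6 (ENSDARG00000086980), named after its values were seen, with TMM-scaled gaps of 0.27 in the upper series and 0.30 in the lower.

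Leaving out 1 fish can only widen a gap, and it moved the count of 13 by more than 1.5 times for 8 fish, all of the upper series. The count was 69 without fish 199, 29 without fish 200, 22 without fish 198 and 20 without fish 202, all at 37.5 nM. It was 35 without fish 192, 28 without fish 193, 22 without fish 190 and 20 without fish 189, all at 3.75 nM. Without the 5 libraries with intestine markers the count was 164. All 13 remain by construction whichever fish are left out, so their presence tells nothing more.

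The edgeR fit of dose, with TMM factors and no term for series, gives 1 size per gene over both series. No test is read from it, since the same fish chose the genes. The differences within a series can depart from it. Between doses, mean log2(CPM + 1) of ftr67 differed by 0.47 in the upper series and 1.62 in the lower. For SMG8 the values were 0.30 and 0.17. In the fit, the log2 change, 37.5 nM minus 3.75 nM (estimate ± SE, 9 fish each), was 1.07 ± 0.30 for mtmr3, 1.06 ± 0.23 for ftr67 and 0.79 ± 0.23 for hlfa. It was 0.79 ± 0.18 for rbm48, 0.73 ± 0.12 for UHMK1, 0.73 ± 0.16 for ANKRD12, 0.72 ± 0.15 for fhip2b and 0.69 ± 0.15 for PLAG1. The lowest were 0.57 ± 0.17 for si:ch211-178h7.4, 0.54 ± 0.14 for si:ch211-236p5.2 and 0.33 ± 0.11 for SMG8. At an adjusted p below 0.05 the fit called 11 of the 12 tested genes and 53 of the 80 higher and 0 lower, where 3.19% of all 15465 genes were called higher. That count follows from the choice of genes.

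The 80 highest-ranked measured genes extend this group into overlap. In addition to the 12 genes with both gaps above 0, they hold 68 whose smaller gap ran down to −0.15 on the log2(CPM + 1) scale. The upper-series gap was above 0 in 16 of the 80 and the lower-series gap in 66. The median gap was −0.10 in the upper series and 0.33 in the lower. The difference of mean log2(CPM + 1) between doses had a median of 0.295 in the upper series and 0.735 in the lower, and it was larger in the lower series for 75 of the 80. These figures were not taken over all measured genes, so they are not read as a trait of the 80. Over all measured genes, too, a gap above 0 was rarer in the upper series (0.233%) than in the lower (16.2%), which had fewer fish per dose. At the edge of the list, the last genes inside were ubr1, ENSDARG00000098299 and si:ch211-209l18.2, with smaller gaps of −0.146, −0.146 and −0.147. The first outside were ENSDARG00000102738, MYF6 and MACO1, with −0.148, −0.149 and −0.15.

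**Figure D2:**
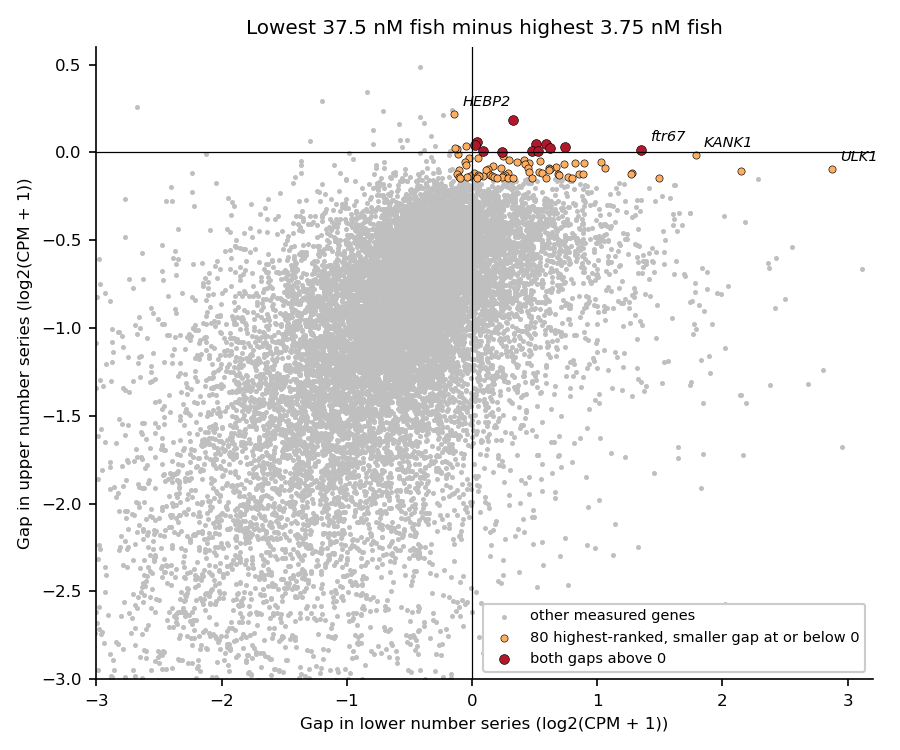
Gap between doses in the lower series (horizontal) against the gap in the upper series (vertical), both in log2(CPM + 1), for the measured genes, with the 80 highest-ranked ones coloured and 1023 genes outside the plotted range. The red points with both gaps above 0 lie just above the horizontal line, and many coloured points stretch far to the right, up to 2.87 for ULK1.

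KANK1 (ENSDARG00000060102, a symbol on 2 gene rows), an adaptor of the cell cortex, came next after the 12. It had 81.3, 87.5, 88.2, 108 and 121 CPM in upper-series fish at 37.5 nM, against 35.3, 49.4, 63.9, 77.5 and 82.1 CPM at 3.75 nM. In the lower series it had 107, 145, 193 and 197 CPM at 37.5 nM, against 16.4, 21.6, 25.1 and 30.2 CPM at 3.75 nM. Only fish 202 and fish 193 crossed in the upper series, while the lower-series groups lay far apart.

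The genes with the next ranks were ENSDARG00000077753, which has no symbol here and is named after its values were seen, PPP1R16B, a regulatory subunit of protein phosphatase 1, and si:dkey-97a13.12. PPP1R16B (ENSDARG00000079860) had 0.300 to 0.609 CPM in 1-year fish at 37.5 nM and 0.122 to 0.516 CPM at 3.75 nM. si:dkey-97a13.12 (ENSDARG00000095649) had 0.331 to 1.86 CPM at 37.5 nM and 0.0491 to 0.527 CPM at 3.75 nM. Both overlapped between doses.

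The 80 genes had a median of 7.01 CPM over 1-year fish, close to the 6.77 CPM of all measured genes, with a range of 0.348 to 2343 CPM. CPM has no correction for transcript length, so levels are not set against each other between genes. By CPM the 4 most counted were selenop, HEBP2, cyp3c1 and GUSB.

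The selenium carrier selenop (ENSDARG00000093549), which liver secretes into plasma, had a lowest, median and highest value of 2402, 3076 and 3645 CPM in 3-year fish, of 1997, 2929 and 3953 CPM in 1-year fish at 37.5 nM and of 1046, 2146 and 2470 CPM at 3.75 nM. The 2 doses overlapped. HEBP2 (ENSDARG00000042630), of the heme-binding SOUL family, had 30.6, 76.4 and 174 CPM in 3-year fish, 117, 211 and 414 CPM in 1-year fish at 37.5 nM, and 36.8, 79.0 and 214 CPM at 3.75 nM. It was 1 of 4 among the 80 with only the upper-series gap above 0. The others, named after their values were seen, were DUSP19 (a symbol on 2 gene rows), prima1 and si:dkey-4c15.18. The upper-series gap of HEBP2, 0.22, was the highest of the 80. In the lower series its value in fish 167 at 3.75 nM, 214 CPM, lay above 2 fish at 37.5 nM.

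For cyp3c1 (ENSDARG00000015575), a cytochrome P450, the values ran from 155 to 331 CPM in 3-year fish, 138 to 208 CPM in 1-year fish at 37.5 nM and 76.2 to 159 CPM at 3.75 nM. GUSB (ENSDARG00000063126), the lysosomal enzyme beta-glucuronidase, ran from 85.9 to 111 CPM in 3-year fish, 92.5 to 118 CPM in 1-year fish at 37.5 nM and 70.9 to 101 CPM at 3.75 nM. The doses overlapped in both series for cyp3c1 and in the upper series alone for GUSB.

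Few of the 80 fell on the 14 pathway lists. Their members were hlfa on the clock list, mtmr3 on the phosphoinositide list, ULK1 on the autophagy list and on that of mTORC1 and AMPK signalling, prodhb (proline dehydrogenase) in amino acid breakdown, the histone demethylase kdm4c among chromatin regulators, KEAP1 among ubiquitin ligases and the phosphatase ptpn2a in JAK-STAT signalling. No list gave more than 1 gene, but the lists do not hold every gene of a kind. The autophagy receptor gene BNIP3L and ftr67, of a ubiquitin ligase family, are among the 80 and on none of the 14 lists. The list counts are therefore not totals of such genes among the 80. On the clock list, 7 of 37 tested genes rose with dose and 0 fell, with a median log2 change of 0.006. On the list of amino acid breakdown 0 of 54 rose and 3 fell (median −0.23), on that of mTORC1 and AMPK signalling 2 of 35 rose and 2 fell (median 0.15), and on the JAK-STAT list 3 of 42 rose and 1 fell (median 0.24). On the phosphoinositide list 2 of 49 rose and 0 fell (median 0.085). On the autophagy list, 5 of 57 rose and 1 fell (median 0.36), on the chromatin list 8 of 65 rose and 2 fell (median 0.23), and on the ubiquitin ligase list 5 of 54 rose and 0 fell (median 0.19). Over all genes 3.19% rose and 8.19% fell, with a median of 0.027. These counts and medians come from the same 1-year fish that chose the 80, and they include its members. Among the genes that rose, hlfa is 1 of the 7 on the clock list and mtmr3 is 1 of the 2 on the phosphoinositide list. The lists were also written with earlier results of these fish known, so the counts describe them only.

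ULK1 (ENSDARG00000074481) had the widest lower-series gap of the 80, 2.87. In the upper series it had 15.4, 15.7, 17.2, 20.3 and 22.3 CPM at 37.5 nM, against 2.88, 9.58, 11.4, 13.5 and 16.6 CPM at 3.75 nM. In the lower series it had 19.1, 19.5, 23.6 and 28.0 CPM at 37.5 nM, against 0.614, 0.979, 1.20 and 1.74 CPM at 3.75 nM. Only fish 193 overlapped the higher dose, and fish 189 lay near the lower series. KEAP1 (ENSDARG00000074634) ran from 13.04 to 19.2 CPM in 3-year fish, 14.2 to 20.2 CPM in 1-year fish at 37.5 nM and 10.3 to 15.1 CPM at 3.75 nM.

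**Figure D3:**
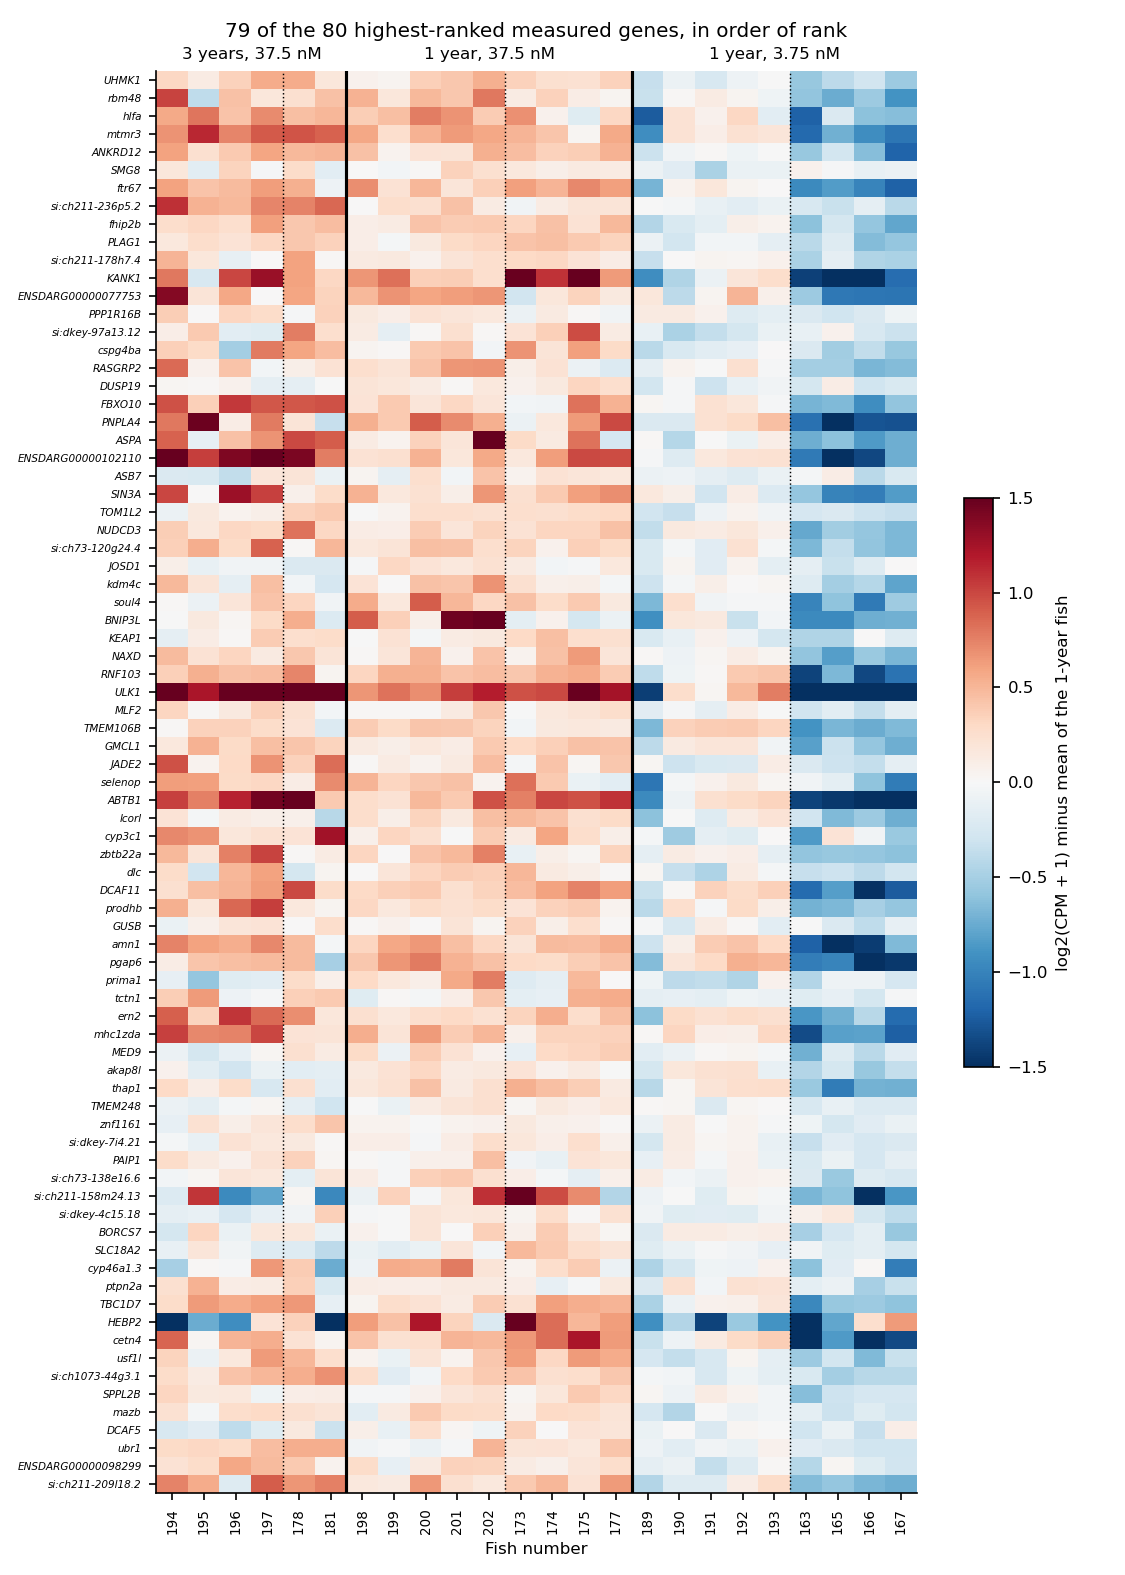
log2(CPM + 1) of 79 of the 80 genes (rows, in order of rank) in each fish (columns), minus the mean of the 18 fish of 1 year, with solid lines between groups and dotted lines between the upper (left) and lower series in each. The lower-series fish at 3.75 nM and fish 189 are the bluest over most rows, and the 3-year fish are mostly red.

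In the heat map the 3.75 nM fish fall apart by series, except that fish 189 is also among the bluest. Their endocrine pancreas score differed by series too (0.179 to 1.32 in the upper and 1.42 to 3.28 in the lower), but fish 189 had 0.645. Fish 198 at 37.5 nM had a score of 2.69 and a mean log2(CPM + 1) of the 80 genes of 3.28. A link between the score and these genes was not tested. The mean log2(CPM + 1) of the 80 genes was 3.01 to 3.12 in fish 190 to 193, 2.76 in fish 189 and 2.45 to 2.55 in the lower-series fish at 3.75 nM. At 37.5 nM it was 3.23 to 3.45 in the upper series and 3.35 to 3.41 in the lower, which overlapped. The ranking compared doses within each series of the same 18 fish, and 66 of the 80 had a lower-series gap above 0. The upper-series gap was above 0 in 16 of them. The ranking thus drew on the 3.75 nM fish of both series, and the series differences are not independent of it. How far their direction follows from the ranking was not tested, so the calls below are a description.

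With dose in the model, edgeR called 8 of the 80 genes higher in the upper series than in the lower and 0 lower, at an adjusted p below 0.05 over all 16312 genes. Over all genes 4.16% were called higher and 7.86% lower. The median log2 change, upper minus lower, was 0.214 for the 80 and 0.061 for all genes. In the 3.75 nM fish alone, 5 against 4, 26 of 77 tested members were called higher and 0 lower, where 5.24% of all genes were called higher and 6.66% lower. In the 37.5 nM fish alone, also 5 against 4, edgeR called 0 of the 80, where 0.0125% of all genes were called higher and 0.0188% lower. An unadjusted p below 0.05 was found for 13 of the 80 (16.2%) and for 20.5% of all genes. The median log2 change of the members was 0.56 at 3.75 nM and −0.10 at 37.5 nM. The difference between these 2 results was not tested.

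Of the 13, only rbm48 was called in the model with dose (0.52 ± 0.14, edgeR adjusted p = 0.0236), and without fish 167 its adjusted p was 0.0548. In the 3.75 nM fish alone ftr67 (1.07 ± 0.27, adjusted p = 0.0361) and mtmr3 (1.403 ± 0.38, adjusted p = 0.0454) were called. The values at 37.5 nM were −0.26 ± 0.15 for ftr67 and 0.11 ± 0.17 for mtmr3, and neither passed.

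The other genes called in the model with dose included RASGRP2 (ENSDARG00000099092, a symbol on 2 gene rows), an exchange factor for Rap and Ras proteins, and zbtb22a (ENSDARG00000020176). RASGRP2 had 1.61 to 2.63 CPM in upper-series and 0.977 to 1.65 CPM in lower-series fish at 37.5 nM, and 1.08 to 1.69 CPM in upper-series and 0.424 to 0.609 CPM in lower-series fish at 3.75 nM. Its log2 change was 0.94 ± 0.20 (edgeR adjusted p = 0.00863). At 3.75 nM the series did not overlap, whereas at 37.5 nM they did, by fish 199 and fish 174. The change of zbtb22a was 0.92 ± 0.20 (adjusted p = 0.00967).

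BNIP3L (ENSDARG00000028067, a symbol on 2 gene rows) had 32.8, 39.7, 58.6, 86.5 and 123 CPM in upper-series and 25.4, 27.7, 29.0 and 32.1 CPM in lower-series fish at 37.5 nM. At 3.75 nM it had 15.8, 24.3, 30.0, 34.3 and 34.9 CPM in the upper series and 15.4, 15.5, 18.1 and 18.3 CPM in the lower. Its log2 change between the series was 0.92 ± 0.21 (edgeR adjusted p = 0.0144). The series were apart at 37.5 nM, and at 3.75 nM only fish 189 overlapped the lower series. ENSDARG00000077753 was called at 0.81 ± 0.19 (adjusted p = 0.0151).

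The MHC class I gene mhc1zda (ENSDARG00000086877), which belongs to a family of similar copies, so that read sharing is uncertain, was called at 0.76 ± 0.20 (edgeR adjusted p = 0.0246). It had 7.03, 7.43, 7.49, 8.84 and 8.89 CPM in upper-series and 2.12, 2.39, 3.49 and 3.52 CPM in lower-series fish at 3.75 nM, without overlap. At 37.5 nM it had 8.08 to 11.3 CPM in the upper series and 7.36 to 9.04 CPM in the lower, with overlap. Without fish 163 or fish 167 its adjusted p was 0.0584 and 0.0581.

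The lysosomal membrane protein TMEM106B (a symbol on 2 gene rows, 0.66 ± 0.20, edgeR adjusted p = 0.0390) and pgap6 (0.91 ± 0.28, adjusted p = 0.0421) completed the 8, and they are named after their values were seen. Leaving out 1 fish ended either call in 10 of 18 fits. For TMEM106B these left out fish 163, 165, 166, 167, 190, 191, 192, 193, 173 or 199 (adjusted p 0.0504 to 0.0876). For pgap6 they left out the same 8 fish at 3.75 nM, fish 174 or fish 199 (adjusted p 0.0527 to 0.0923). TMEM106B had 8.77 to 9.21 CPM in fish 190 to 193, 3.88 CPM in fish 189 and 3.19 to 3.94 CPM in the lower-series fish at 3.75 nM. Without the 5 libraries with intestine markers none of the 8 calls remained, and the log2 changes of the 8 were then 0.55 to 1.12. In the 3.75 nM fish alone, 34 members were called without fish 189, where 3512 of all 15440 genes were called. Without the 3 libraries with intestine markers 0 members were called, where 3 of all 15254 genes were. With all 9 fish at 3.75 nM, 26 members and 1885 of all 15842 genes were called in either direction, and all members called were higher. Both counts rose without fish 189 and fell without the intestine libraries, though not in proportion. Both fits were chosen after the data were seen, and the second set 3 fish against 3.

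Age was compared at 37.5 nM, with 6 fish of 3 years against 9 of 1 year. The 3-year fish had no part in the choice of genes, although the 1-year fish did. Such a choice favours genes that are high in the 1-year fish at 37.5 nM, which can lower the change with age. The calls below are therefore a description. Of the 80 genes, edgeR called 3 higher and 0 lower at 3 years, where 0.897% of all 16159 genes were called higher and 0.823% lower (1.72% in either direction). The median log2 change, 3 years minus 1 year, was 0.031 for the 80 and −0.003 for all genes, and an unadjusted p below 0.05 was found for 19 of the 80 (23.8%) and for 18.8% of all genes.

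The highest of the 3 calls was ENSDARG00000102110, which has no symbol here and is named after its values were seen. It had 9.502, 11.7, 15.3, 15.4, 16.6 and 18.4 CPM in 3-year fish and a lowest, median and highest value of 5.91, 7.85 and 11.3 CPM in 1-year fish. Only fish 181 fell among the 1-year fish. Its log2 change was 0.88 ± 0.19 (edgeR adjusted p = 0.0275). Without fish 178, 194, 196, 197 or 198 the adjusted p was 0.0536 to 0.0751.

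For si:ch211-236p5.2 the log2 change was 0.70 ± 0.15 (edgeR adjusted p = 0.0277), with all 6 older fish above all 9 younger ones. Without fish 173, 174, 178, 194, 196, 197 or 198 the adjusted p was 0.0506 to 0.0627. Complete separation of this kind, older fish above, was seen in 2 of the 80 genes, the other being mtmr3, and in 0.239% of all measured genes. No member had all 6 older fish below all 9 younger ones. Few measured genes did (0.634%), so this absence is not read as a trait of the 80. For mtmr3 the log2 change of 0.48 ± 0.13 did not pass (adjusted p = 0.0612).

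ULK1 had 23.1, 28.4, 29.3, 33.4, 37.5 and 38.8 CPM in 3-year fish and 15.4, 19.5 and 28.0 CPM as the lowest, median and highest of the 1-year fish. It was higher at 3 years by 0.64 ± 0.15 (edgeR adjusted p = 0.0395), with 5 of 6 older fish above all younger ones. Of 15 fits without 1 fish, 11 ended the call, those without fish 178, 194, 196, 197, 173, 174, 198, 199, 200, 201 or 202 (adjusted p 0.0527 to 0.0993). In the upper series alone the log2 changes of ENSDARG00000102110, si:ch211-236p5.2 and ULK1 were 1.21, 0.66 and 0.78, with adjusted p-values of 0.0284, 0.252 and 0.111. The lower series held only 2 older fish and was not fitted alone. Without fish 198 and 200, whose libraries carried intestine markers, the log2 changes were 0.79, 0.64 and 0.52 and none passed (adjusted p 0.0686 to 0.0706). Fish 198 also carried skeletal muscle markers, as did the 3-year fish 178, which stayed in this fit.

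Below the threshold, FBXO10, an F-box component of ubiquitin ligases named after its value was seen, had a log2 change of 0.79 ± 0.22 (edgeR adjusted p = 0.0738). HEBP2 had the lowest, −1.33 ± 0.39 (adjusted p = 0.0851), with 4 of the 6 older fish below all younger ones. Of the 12 tested genes with both gaps above 0, the other 11 did not pass, and the age change of 10 of these ran from −0.06 ± 0.15 for ftr67 to 0.48 for mtmr3. A term for the interaction of age and series called 0 of 18276 genes, with 1808 at an unadjusted p below 0.05 (9.89%), 12 of them among the 80 (15%).

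**Figure D4:**
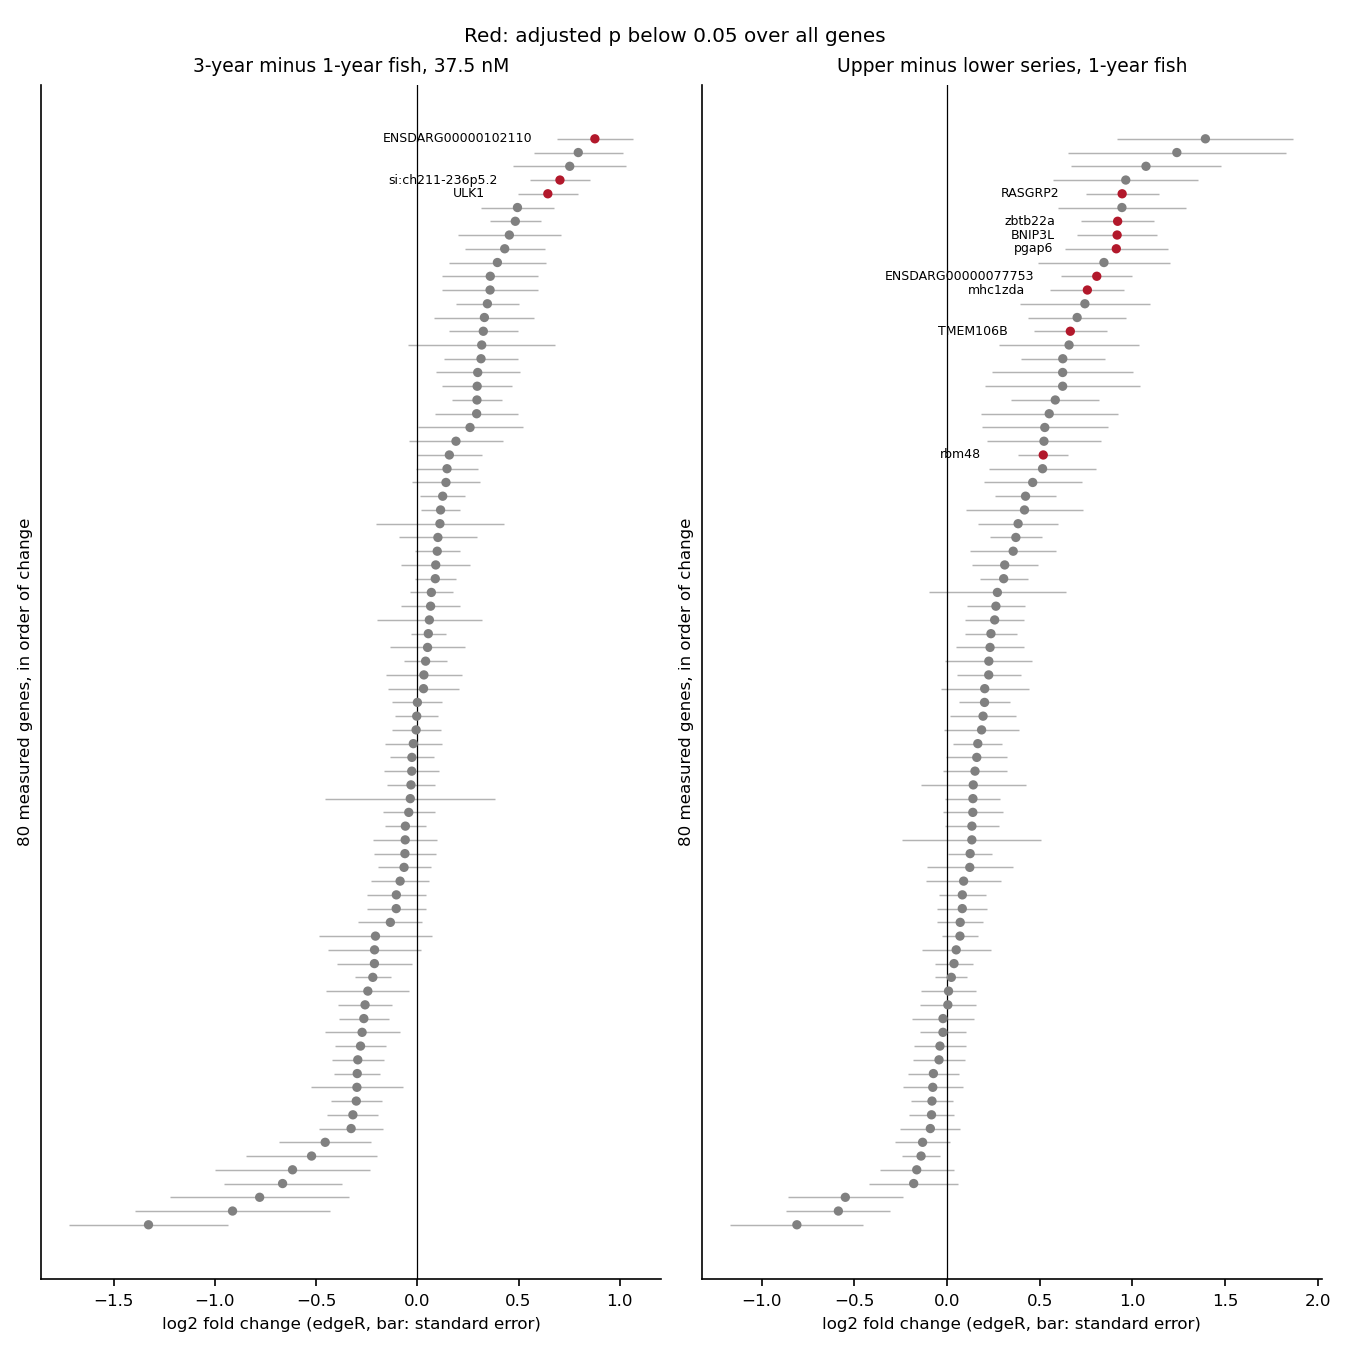
edgeR log2 fold change (horizontal, bars are standard errors) of the 80 genes, each panel in its own order, for 3-year minus 1-year fish at 37.5 nM (left) and for the upper minus the lower series in 1-year fish (right). Red points passed an adjusted p of 0.05 over all genes, 3 on the left and 8 on the right, all above 0.

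Set against the 3.75 nM fish, which helped choose the genes, the 3-year fish are a description only, and dose, age and transgene differ together. All 6 older fish lay above all 9 fish at 3.75 nM for 7 of the 13 genes and 15 of the 80, where 1.28% of measured genes did. The 7 were UHMK1, hlfa, mtmr3, ANKRD12, si:ch211-236p5.2, fhip2b and PLAG1. The gaps of 3-year fish over 3.75 nM fish were above 0 in both series for 8 of the 13 and 23 of the 80, where 1.91% of measured genes were. The 3-year mean was above the 3.75 nM mean in 13 of the 13 and in 76 of the 80. By edgeR, the log2 change between these groups was above 0 in 98.7% of 79 tested members and in 48.4% of all genes. The genes were chosen to be low in the 3.75 nM fish, so this direction follows in part from the choice.

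By edgeR, 10 of the 12 tested genes of the 13 and 39 of 79 tested genes of the 80 were higher in 3-year fish than in 1-year fish at 3.75 nM, and 0 were lower, where 7.38% of all genes were higher and 8.57% lower. The log2 change was 1.54 ± 0.35 for mtmr3, 1.23 ± 0.14 for si:ch211-236p5.2 and 2.31 ± 0.64 for ULK1. SMG8 (0.27 ± 0.14) and si:ch211-178h7.4 (0.59 ± 0.22) were the 2 of the 12 that did not pass. HEBP2 stood at 0.0020 ± 0.41, with no older fish above the 3.75 nM group.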

How the data were processed

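Counts per gene came from the deposited tables, which the authors made with CASAVA 1.8.2, STAR 2.4.1d, featureCounts 1.4.6-p4 and GRCz10, per the submitters' processing notes. The strand setting is not given in the sources used here, so reads of overlapping genes on opposite strands cannot be told apart. Libraries were made with the TruSeq RNA v2 kit, per the labels' protocols. Values named RPKM were not used. Coordinates, promoters and sequences were not used here.

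The counts of 24 libraries were joined on gene identifier (32105 rows, 26269 with a symbol). Each group was read from the labels. No pair of libraries in a group agreed within counting noise (chi-square per gene at least 81.4 over genes with 10 or more counts). CPM used column totals, and the pseudocount was 1. Tests were edgeR 4.0.16 two-sided quasi-likelihood F tests with TMM factors, filterByExpr and Benjamini-Hochberg adjustment over all genes tested, at 0.05, one fit per comparison, and SE is |log2 change| over √F. The age and series fits were also run on simulated counts with known changes, and the outcome is not given here. Those counts held no carry-over of other tissues, so they do not test how such markers bear on the calls. Alternatives used RLE or column-total scaling, other pseudocounts, no filter, DESeq2 1.42.0, series as a covariate or alone, and libraries left out. Scripts ran under R 4.3.3 and Python 3.11.15.

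The members, the gene lists and the tests were chosen with earlier results of these data known. Of 811 list entries, 747 matched a gene row. Of the 80 genes, 8 carry a symbol found on more than 1 gene row, and the values given are those of the ranked row. Named were the 16 highest-ranked genes, up to 3 members per list, up to 6 past the age test and up to 6 past the series test with a mean of at least 1 CPM, the 4 with the highest mean CPM and the 3 on either side of rank 80. Of the 13 genes, 1 is counted in totals but not reported here.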

Additional observations from a re-analysis of the deposited data

Results flagged for a closer look

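Dixon's criterion was applied to 99 gene and group combinations (33 named genes in 3 groups). In 4 of these, 1 fish stood apart from the rest of its group. Chance alone meets the criterion in about 1 in 20 groups, but only where the values did not choose the genes. The ranking used the 1-year fish and disfavours low outliers at 37.5 nM and high outliers at 3.75 nM. That rate therefore does not hold for the 1-year groups, and the flags are a description. SMG8 had 6.22 CPM in fish 191 at 3.75 nM, below the 7.96 to 9.52 CPM of the other 8 fish. The finTRIM gene ftr67 had 8.84 CPM in the 3-year fish 181, below the 12.96 to 15.03 CPM of the other 5 older fish, and this fish alone kept ftr67 out of the genes whose older fish all lay above the 3.75 nM fish. The low-count gene cdc14aa had 0.216 CPM in the 3-year fish 197, above the 0 to 0.0711 CPM of the others. si:dkey-97a13.12 had 1.86 CPM in fish 175 of 1 year at 37.5 nM, above the 0.331 to 0.861 CPM of the other 8 fish. No cause of these values was tested.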

How the results depend on the processing

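The count of 13 genes with both gaps above 0 was 29 with TMM-scaled CPM, 164 without the libraries with intestine markers and 13 to 69 with 1 fish left out; it was 13 with pseudocounts of 0.1 and 5. Of the 80 ranked genes, 21 remained with TMM, 44 with a pseudocount of 5, 16 without the intestine libraries and 26 to 79 with 1 fish left out. In the age comparison, 278 genes passed by edgeR against 1196 by DESeq2, 540 with series as a covariate, 30 in the upper series alone and 115 to 559 with 1 fish left out. It moved by more than 1.5 times without fish 195 (559), 196 (115), 197 (139) or 198 (167). Of the 80, the 3 higher at 3 years became 5 higher and 1 lower by DESeq2, 1 without the filter, 1 in the upper series alone, 0 without the intestine libraries and 0 to 4 with 1 fish left out. Between the series, 1961 genes passed, against 3527 by DESeq2, 858 with column totals, 1078 without the filter, 89 without the intestine libraries, 5 at 37.5 nM alone and 986 to 2855 with 1 fish left out. That count was 1034 without fish 163, 1293 without fish 165, 986 without fish 167 and 1213 without fish 192. The 8 higher members became 15 by DESeq2, 26 at 3.75 nM alone, 0 at 37.5 nM alone, 0 without the intestine libraries and 4 to 10 with 1 fish left out. At 3.75 nM alone, alternatives chosen after seeing the data gave 3512 genes and 34 members without fish 189, and 3 genes and 0 members without the intestine libraries. The 15 members whose older fish all lay above the 3.75 nM fish were 24 in the upper series alone and 15 to 22 with 1 fish left out. Over all measured genes this count was 198 (1.28%), 380 (2.46%) in the upper series alone and 203 to 399 (1.31% to 2.58%) with 1 fish left out. It also rose with fewer fish. The cause of these shifts was not tested. The median log2 change of the 80 between the series was 0.214 with dose in the model and −0.10 at 37.5 nM alone, and that of ftr67 was 0.36 and −0.26. With TMM, 8 of the 13 had a gap below 0. The changes of 6 genes with age and 8 between the series kept their sign in each alternative run. No paired analysis was possible because no fish number occurs in more than 1 group. Low counts kept cdc14aa from being tested.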
